A study of Drosophila melanogaster with 4 samples.

Results

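The gap genes hunchback (hb), knirps (kni), giant (gt), tailless (tll) and huckebein (hkb) were examined for binding by GAGA factor (GAF) in late embryos of Drosophila melanogaster. GAF is the zinc-finger protein encoded by Trl. Occupancy was measured by ChIP-seq, the sequencing of DNA that is immunoprecipitated with the protein from crosslinked chromatin. The embryos were wild-type Oregon-R animals aged 14 to 16 hours, and the series has 2 GAF ChIP libraries and 2 input libraries of the same strain and age. The analysis used 3 deposited lists of enriched regions (clusters), namely 1 per ChIP replicate and a combined list of the replicate set, on FlyBase release 5 of the genome. The inputs were not analysed here. The lists come from whole embryos and so average over all cells, and separate embryo collections are not stated for the replicates, so their spread may be technical. The files hold no read counts, and the sequencing depth is therefore unknown.

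Members were the clusters that shared at least 1 bp with a fixed window around each gene. The windows were 3R from 4500000 to 4540000 for hb, 3L from 20665000 to 20715000 for kni, X from 2305000 to 2340000 for gt, 3R from 26660000 to 26700000 for tll and 3R from 150000 to 200000 for hkb. They held 13 of the 6474 combined clusters, 10 of the 5694 clusters of replicate 1 and 8 of the 5709 of replicate 2. No release 5 gene annotation was used, so a cluster is placed by its distance from the start of its window and not relative to a promoter, exon or intron. The windows can also hold other genes. In the order of genes of the release 6 RefSeq table, the nearest annotated neighbours were lncRNA:CR44937 and Cks85A for hb, lncRNA:CR44685 and cmpy for kni, CG32797 and tko for gt, CG15544 and Cpr100A for tll, and CG1103 and CG1090 for hkb. All 5 gap genes lay on the same arms in that table as their windows do here.

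Gap genes encode transcription factors that are expressed in broad regions of the early embryo, where they read maternal gradients and set the positions of the pair-rule stripes. hb, kni and gt act mainly in the trunk and head, and tll and hkb at the embryo's ends, downstream of terminal signalling. Several of these genes are used again later, for example hb and hkb in neuroblasts, kni in the tracheal system and tll in the brain. GAF binds GA-rich DNA and is known for keeping promoters and regulatory elements accessible, and for working with Polycomb and Trithorax group proteins at developmental genes. The embryos profiled here are well past the blastoderm stage at which the gap domains are set.

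GAF clusters were present at all 5 loci, but the loci differed in score. The kni, hkb and hb windows each held a cluster that scored 1.99 or higher in every list. The tll window held only clusters scoring under 1, and the gt window held a single weak cluster across its edge. The score is the authors' own signed value for a region, and its scale is not stated. It was therefore compared by rank and by difference, with no fold change. A cluster found in both replicates occurred in each of the 5 windows. Among all windows of the same width laid end to end on X, 2L, 2R, 3L and 3R, this was true of 74.6% of 35 kb windows, 77.7% of 40 kb windows and 83.7% of 50 kb windows, so the presence of a cluster at 5 of 5 loci is near that background.

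**Figure D1:**
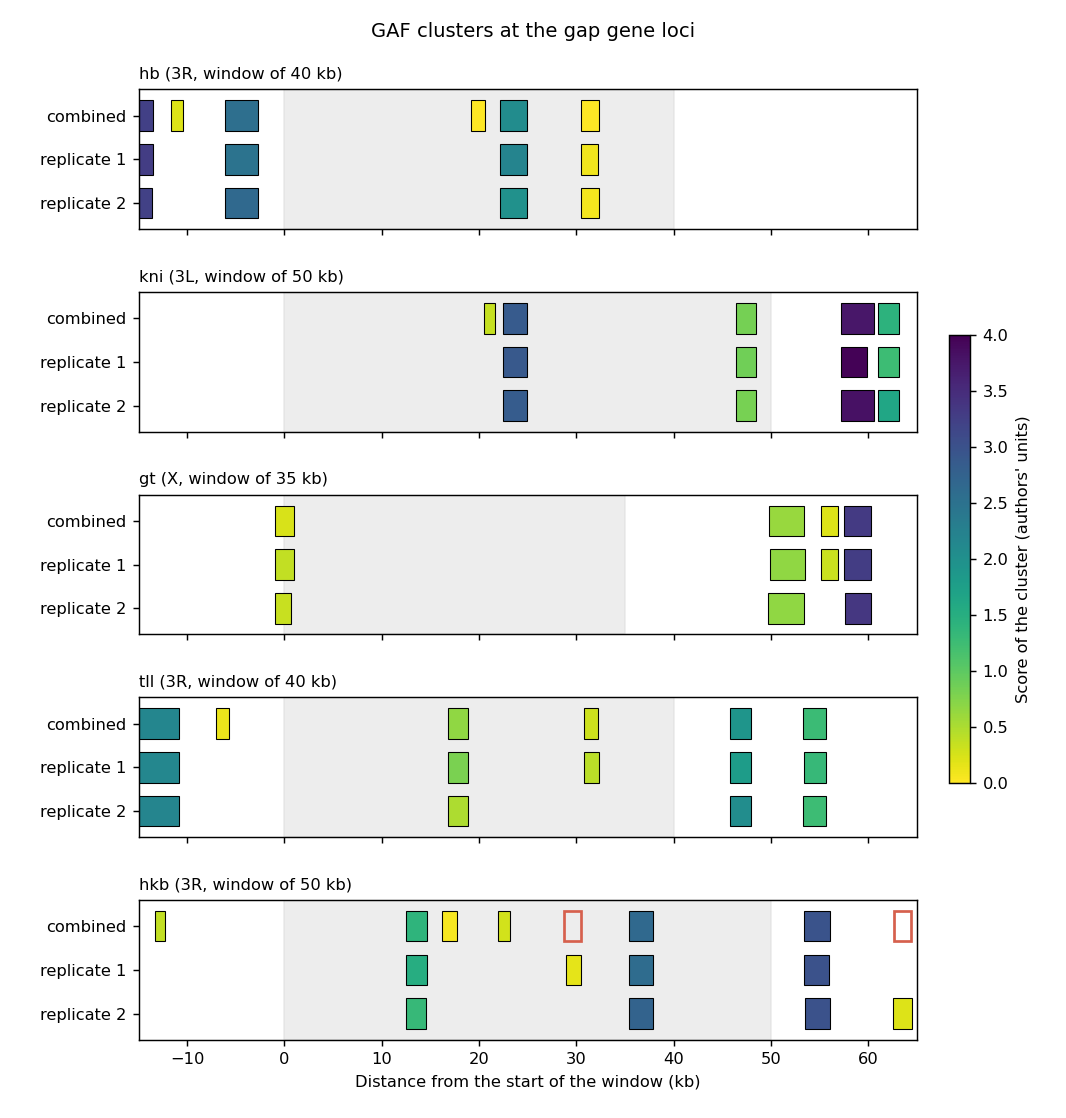
Clusters of the combined list and of each replicate are drawn as boxes, with the horizontal axis in kb from the start of each window, the window shaded in grey and the fill giving the score. Open red boxes are regions of negative score. The kni, hkb and hb windows each hold a darker box at the same place in all 3 lists, and the gt window is empty apart from the box on its left edge.

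The strongest cluster at any of these loci was at kni, which encodes a nuclear-receptor-type zinc-finger repressor. It ran from 20687493 to 20689941 on 3L, 22.5 kb into the window, and was 2449 bp wide. Replicate 1 scored it at 2.90 and replicate 2 at 2.85, and its combined score was 2.86. The replicate mean was 2.87 ± 0.04 (SD, n = 2). In the combined list 85.9% of clusters scored lower. A second kni cluster, from 20711385 to 20713478, lay 46.4 kb into the window and scored 0.860 and 0.814 in the replicates and 0.837 in the combined list. Both kni clusters were found in every list with scores that barely moved. A further and narrower cluster of 1107 bp, from 20685559 to 20686665, stood 0.827 kb before the strong one. It scored 0.357 in the combined list and was in neither replicate list.

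The 50 kb hkb window held 4 combined clusters, 3 clusters of replicate 1 and 2 of replicate 2. hkb encodes a zinc-finger protein of the SP1 type that acts at both ends of the embryo. Its strongest cluster ran from 185385 to 187874 on 3R, 35.4 kb into the window, and scored 2.61 in replicate 1 and 2.74 in replicate 2, with a combined score of 2.65 (2.67 ± 0.10 over the replicates, n = 2), with 82.5% of combined clusters scoring lower. A second, from 162445 to 164619, scored 1.51 and 1.33 in the replicates and 1.40 in the combined list. These were the only hkb clusters found in both replicates. Between them the combined list had weak clusters from 166190 to 167777 and from 171916 to 173232, at 0.0523 and 0.277, and neither replicate list had a cluster at either place. A region from 178705 to 180474 had a score below 0 in the combined list, -0.0832, where replicate 1 had a cluster scoring 0.156 and replicate 2 had no region.

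hb, a zinc-finger gene with an early anterior domain, had 1 strong cluster. It ran from 4522152 to 4524934 on 3R, 22.2 kb into the window, and scored 2.19 in replicate 1 and 1.99 in replicate 2, with a combined score of 2.08 (2.09 ± 0.14 over the replicates, n = 2), with 72.0% of combined clusters scoring lower. At 2783 bp it was the widest cluster of the 5 loci. The other hb clusters were close to the bottom of the list. The one from 4530470 to 4532311 was in both replicates at 0.0861 and 0.0685 but scored 0.00920 in the combined list, where only 0.432% of clusters scored lower. The one from 4519141 to 4520608, at 0.0143, was in the combined list alone.

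tll encodes an orphan nuclear receptor. Its window had a cluster from 26676798 to 26678873 on 3R, 16.8 kb in, scoring 0.801 in replicate 1 and 0.491 in replicate 2, with a combined score of 0.658 (0.646 ± 0.22 over the replicates, n = 2). This was the least repeatable score of the 8 clusters found in both replicates, with an SD above that of 76.9% of all paired clusters. The other tll cluster, from 26690840 to 26692248, scored 0.411 in replicate 1 and 0.309 in the combined list, and replicate 2 had no cluster there.

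gt, which encodes a basic leucine-zipper repressor, had the least. Its single cluster ran from 2304030 to 2305980 on X, with 981 of its 1951 bp inside the window. It scored 0.371 in replicate 1 and 0.338 in replicate 2, with a combined score of 0.240, and 15.3% of combined clusters scored lower. The remaining 34.0 kb of the window held no region in the combined list or either replicate. The cluster-free stretch ran on beyond the window, from 2305981 to 2354759, a distance of 48.8 kb.

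The strongest cluster of each locus thus ranked kni, hkb, hb, tll and gt, in the same order in replicate 1, replicate 2 and the mean of both. The spread of 1 cluster's score over the replicates was 0.200 (pooled within-cluster SD over 5006 combined clusters matched 1 to 1 in both replicates). It is a rough guide, since a difference between 2 clusters in 1 replicate can vary more than 1 score. The median SD was smaller, 0.114, so differences just within 0.200 depend on this choice. kni exceeded hkb by 0.199 on average, which is within that spread of 0.200, and by 0.295 in replicate 1 and 0.103 in replicate 2. hkb exceeded hb by 0.585 and hb exceeded tll by 1.44, both beyond that spread. tll exceeded gt by 0.292, beyond that spread on average and in replicate 1 (0.430) but within it in replicate 2 (0.153). These neighbours in the order were therefore not clearly separated. The loci were put in order by these same scores, so the sign of each mean difference was set in advance. Paired within the replicates, each of these 4 differences had the same sign in both. Each gave p = 0.5 in a two-sided exact permutation test (n = 2). This is the smallest p that 2 pairs allow, so no difference could pass a threshold of 0.05.

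**Figure D2:**
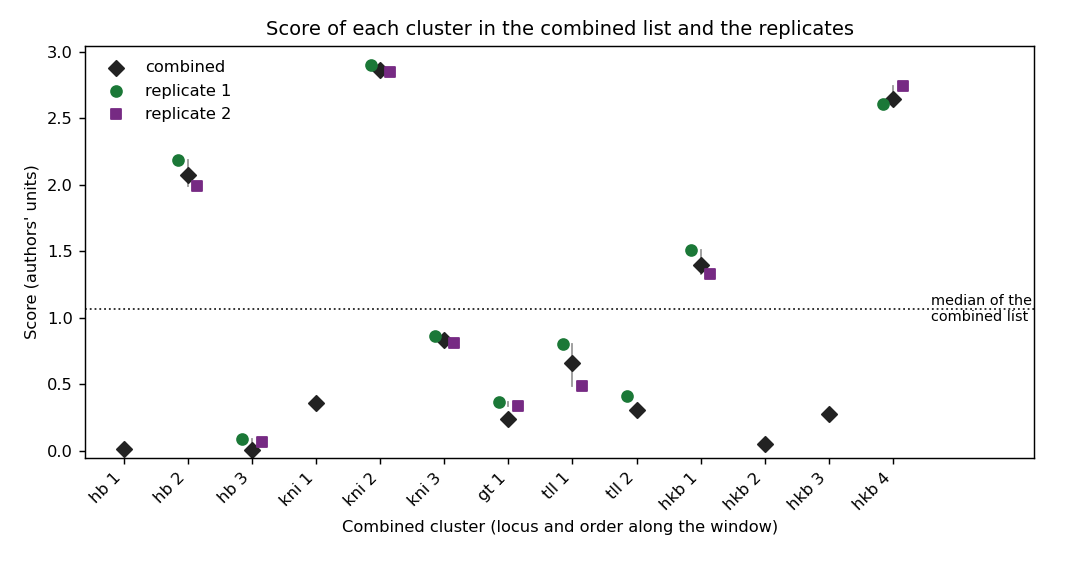
Score in the authors' units of each of the 13 combined clusters (diamonds) with its match in replicate 1 (circles) and replicate 2 (squares), ordered by locus and position, and with a dotted line at the median of the combined list, 1.07. The strongest clusters of kni, hkb and hb, and the hkb cluster from 162445 to 164619, lie above the line in all lists. The 5 diamonds with fewer than 2 replicate marks all lie below 0.4.

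Over the 5 loci the combined clusters had a median score of 0.357, against 1.07 for all 6474 clusters, and 9 of the 13 scored below that list median. The gap was smaller in the replicate lists, which lack several of the weak clusters. In replicate 1 the median was 0.831 at these loci against 1.31 over its list, with 6 of 10 clusters below the list median. In replicate 2 it was 1.07 against 1.37, with 5 of 8 below. 3 of the 13 scored under 0.1, or 23.1%, against 5.16% of the whole list. Their median width was 1951 bp, against 2201 bp. The widest, at hb, was 2783 bp, which is below the upper quartile of the list, 2967 bp, so none of the 13 was broad for this list. Among the 200 clusters nearest to it in score, 57.0% were narrower than the strong hb cluster, 18.0% than the strong kni cluster and 31.0% than the strong hkb cluster. The kni and hkb clusters were thus narrower than most clusters of like score.

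**Figure D3:**
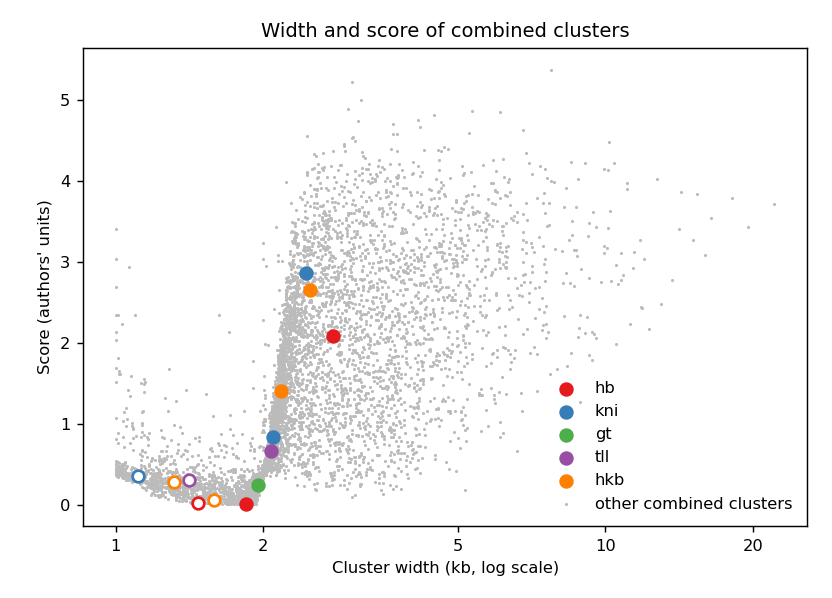
Width in kb (log scale) against score in the authors' units for the 13 combined clusters of the gap gene loci (large circles, filled where both replicates had the cluster, open otherwise) and for the other combined clusters (grey). The 5 open circles are 1107 to 1588 bp wide, and the filled ones run from 1842 to 2783 bp.

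The clusters that replicates shared were the higher-scoring and wider ones, with 2 low-scoring exceptions at hb and gt. The same contrast held over the whole combined list, so it is not particular to these loci. At the median, shared clusters of that list scored 1.47 and spanned 2362.5 bp. Those in neither replicate scored 0.328 and spanned 1226 bp. The narrowest cluster of replicate 1 spanned 1302 bp and that of replicate 2 1301 bp, both wider than the kni cluster of 1107 bp. Whether such a lower limit shaped the width contrast was not tested. Both replicates had 8 of the 13 combined clusters (61.5%, exact Clopper-Pearson 95% interval 31.6 to 86.1%, for counting error only), replicate 1 alone had 1 and neither had 4. In the whole combined list 79.5% were in both and 9.21% in neither. The interval for these loci includes that 79.5%. It is wide and treats the 13 clusters as independent, though some are close neighbours, so it cannot decide whether these loci differ. The 4 found in neither scored 0.0143 to 0.357 and were 1107 to 1588 bp wide, and all of the 4 clusters that scored above the list median were in both. From the replicate side, all 8 clusters of replicate 2 at these loci overlapped a cluster of replicate 1, beside 91.7% of its whole list. Of the 10 clusters of replicate 1, 8 overlapped a cluster of replicate 2, beside 92.3% of its whole list. The 2 that did not were the second tll cluster and the hkb cluster on the region of negative combined score. Where both replicates had a cluster, the edges differed by 3 to 48 bp at the start and 5 to 277 bp at the end. The median over both edges was 18.5 bp, beside 28 bp for all matched clusters. The shift of 277 bp was at the right edge of the gt cluster. The SD of the score ran from 0.0124 to 0.220 with a median of 0.0678, beside a median of 0.114 for all matched clusters. Replicate 1 scored higher at 7 of the 8, against 41.9% of all matched clusters.

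The combined score did not always lie between the replicate scores. At hb, the cluster from 4530470 scored lower in the combined list than in either replicate, as did the gt cluster. At the other 6 it lay between them. Among all matched clusters, 23.4% scored lower in the combined list than in both replicates, and 35.4% of those with a combined score under 1 did.

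As whole regions, all windows but gt were ordinary in GAF coverage, and gt was low. Clusters covered 15.2% of the hb window in the combined list, and 11.2% and 11.5% in replicates 1 and 2. They covered 15.1% of the hkb window (12.2% and 9.17% in the replicates), 11.3% of the kni window (9.07% and 8.93%), 8.71% of the tll window (9.08% and 4.98%) and 2.80% of the gt window (2.80% and 2.01%). The hb and hkb windows were covered more than 60.9% and 60.3% of all windows of their width in the combined list, kni more than 47.7%, tll more than 40.1% and gt more than 21.1%. All but gt lay between the quartiles of such windows, which were 4.94 and 20.6% for 40 kb and 4.91 and 20.2% for 50 kb. The gt value was under the lower quartile for 35 kb, 4.77%, but 19.9% of 35 kb windows held no cluster at all. By the highest score in the window, kni stood above 67.0% of windows of its width, hkb above 61.3%, hb above 54.0%, tll above 29.2% and gt above 24.3%. None of the 5 was near the top of the genome by either measure. Taking the 215 kb as a whole, clusters covered 11.1% in the combined list, against 14.0% of the 5 large arms. In the replicates these were 9.18 and 7.59%, against 12.6 and 12.7% of the arms.

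**Figure D4:**
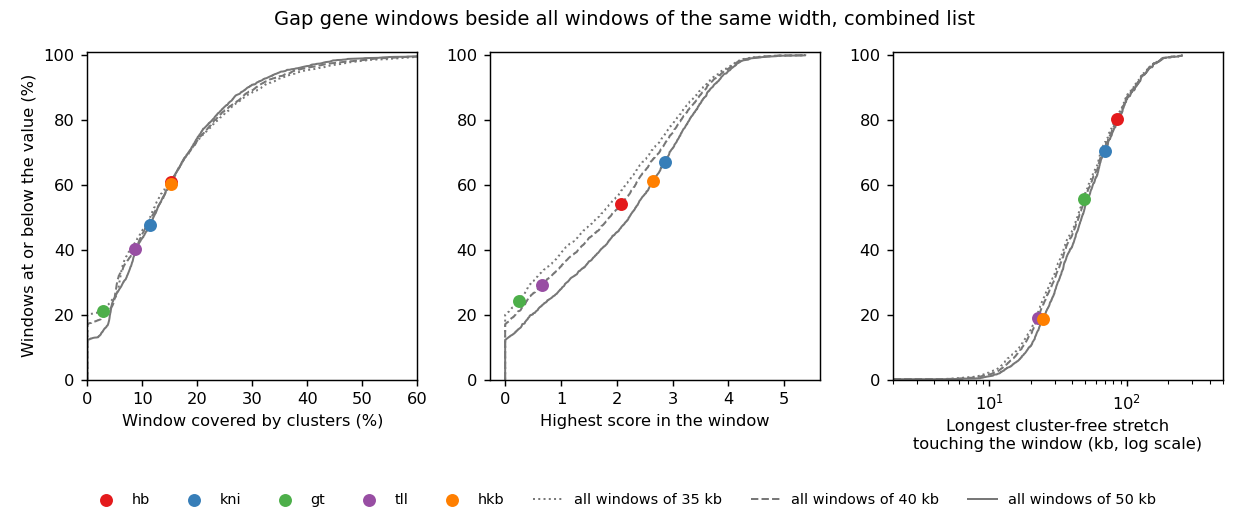
Cumulative share of all windows of 35, 40 and 50 kb on the 5 large arms (grey lines, vertical axis in percent) by percent covered, by highest score and by the longest cluster-free stretch touching the window in kb (log scale), with the 5 gap gene windows as coloured points on the line of their own width. The points for hb and hkb sit near 60% for coverage and the point for gt near 21%.

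The hb clusters stood at the edge of a long stretch without GAF clusters. To the right of the last hb cluster no cluster followed until 4617283, 85.0 kb on, and only 2.46% of the 6208 gaps between neighbouring clusters were as long. To the left of kni the stretch from 20616361 to 20685558 was free of clusters for 69.2 kb, and 3.98% of gaps were as long. The stretch of 48.8 kb across gt was matched or exceeded by 7.96% of gaps. At tll and hkb the longest stretches touching the window were 22.5 and 24.7 kb. Replicates 1 and 2 gave 85.1 and 85.0 kb at hb, 71.1 and 71.2 kb at kni, 48.9 and 49.1 kb at gt, 27.6 and 27.7 kb at tll, and 27.8 kb in both at hkb. A window touches long gaps more often than short ones. Counted over windows of the same width, 19.7% touched a gap as long as that at hb, 29.4% one as long as that at kni, 44.3% as at gt, 81.1% as at tll and 81.3% as at hkb, so none of these stretches was rare for a window. Whether reads could be aligned uniquely across them is not recorded in the lists.

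The window edges bear on these values, since at each locus a nearest cluster beyond an edge scored higher than any cluster inside. How often this holds over all windows of the same width was not counted, so it is not shown to be particular to these loci. To the left of the hb window the nearest cluster, 2.69 kb away, scored 2.48 and 2.64 in the replicates and 2.55 in the combined list, above the 2.08 of the strong cluster inside. To the right of the kni window the nearest was 7.24 kb away, from 20722242 to 20725557, and scored 3.98 and 3.82 in the replicates and 3.76 in the combined list, with 96.6% of the list scoring lower. To the right of the hkb window a cluster 3.45 kb away scored 2.99 and 3.00 in the replicates and 2.98 in the combined list. At tll the nearest to the right was 5.76 kb away and scored 1.81 and 2.05 in the replicates and 1.92 in the combined list, against 0.658 for the best inside. At gt the nearest to the right was 14.8 kb away and scored 0.661 and 0.670 in the replicates and 0.624 in the combined list. Which gene any of these clusters lies nearest to was not analysed here.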

How the data were processed

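GAF ChIP-seq region lists of 2 replicates and of the replicate set were used as deposited. The genome is FlyBase release 5 per the file headers, and each region has a signed score, above 0 for significant enrichment and below 0 for significant depletion. The submitters' processing notes name Bowtie 0.12.7. The sources used here do not give the region caller, its thresholds or how replicates were merged. Windows were applied to regions with a score above 0 (at least 1 bp shared). Combined clusters were matched to replicate clusters by the same overlap. Each window was set beside all windows of its width laid end to end on 5 large arms. Differences between loci were paired within the 2 replicates and given a two-sided exact permutation test, added after the values were seen. Other values are descriptions. Every member and every cluster in the windows is described. The members, lists and comparisons were chosen with earlier results of these data known, and the gap lengths, the width for a given score and the clusters wholly inside a window were added after. The overlap and tiling routines were tested on simulated data. The release 6 gene table served only for gene names and order. Promoter motifs were planned but not analysed here. Python 3.11.15, pandas 2.3.3 and scipy 1.17.1 were used.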

Additional observations from a re-analysis of the deposited data

Results flagged for a closer look

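The hkb window held the only region with a score below 0 at these loci, -0.0832 in the combined list, from 178705 to 180474. It stood out because the comparisons of clusters do not use such regions. Replicate 1 had a cluster there, from 178983 to 180461, with a score of 0.156, below which 2.99% of its list scored, and replicate 2 had no region. The combined list has 210 such regions, of which 64 lay on a cluster of replicate 1 alone and 74 on a cluster of replicate 2 alone, and 48 scored lower than the one at hkb. The cause was not tested.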

How the results depend on the processing

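Of 30 alternative counts of clusters per locus, 21 stayed within 1.5 times the reported count. Keeping only clusters that reached their list's median score left 1 at hb, 1 at kni, 0 at gt, 0 at tll and 2 at hkb. Both replicates had 3 of these 4 when each replicate list was held to its own median. The hkb cluster from 162445 to 164619 scored 1.33 in replicate 2, under that list's median of 1.37. With windows widened by 10 kb on each side tll had 4. With only clusters wholly inside the window, an alternative chosen after the data were seen, gt had 0. From single replicate lists tll had 1 to 2 and hkb 2 to 3. The share of windows covered less moved by more than the replicate SD under several settings. From single replicate lists it was 53.5 to 53.6% at hb, 43.8 to 45.1% at kni, 23.9 to 24.3% at gt and 45.1 to 55.8% at hkb. It varied most at tll, 28.0% without replicate 1 and 45.3% without replicate 2, against 40.1% as reported. With the tiling of windows offset it was 61.0% at hb and 21.7% at gt. With the median score as a minimum it was 55.5% at hb, 42.9% at kni, 0% at gt and 0% at tll, where no such cluster was left. A reciprocal overlap of 50% left 8 clusters in both replicates. The count of promoters with a GAGAG motif was not run. No paired analysis was possible because the input libraries have no region list here. Depth is unknown, so a place without a cluster is not shown to be unbound.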

Other observations

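Beyond the hkb window, 12.6 kb to its right, the combined list had another region of negative score, -0.00980 from 212629 to 214449, where replicate 2 had a cluster at 0.210 and replicate 1 had no region. Beyond the kni window, 17.4 kb to its right, a region from 20732428 to 20734241 scored -0.133 in the combined list and -0.0627 in replicate 1, with no cluster in either replicate.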
